A study of Mus musculus with 10 samples.

Results

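Interferons are secreted antiviral cytokines that act through a short signalling chain, and the genes of that chain are described here in 10 polyA RNA libraries of spermatogenic cells from mouse testis at postnatal day 18. The genes are the receptor chains Ifnar1, Ifnar2, Ifngr1 and Ifngr2, the signal transducer Stat2, and the interferon regulatory factors Irf1, Irf3, Irf7 and Irf9. They were taken by symbol, and all 9 were found among 23420 gene rows and passed the count filter that left 15265 genes for testing. The set was drawn up with the contrast between the 2 genotypes in view, so the members' values in that contrast are given as a description, without p-values. Of the libraries, 5 are labelled Ino80WT and 5 Ino80cKO. Ino80cKO mice lack INO80, an ATP-dependent chromatin remodeller, through a testis-specific deletion made with Stra8-Cre, a Cre driven by the promoter of a germ cell gene. Mice of both groups were of mixed background and of the same age. The sources used here do not state whether Ino80WT mice carried floxed alleles or Cre. The cells came from tubules digested with collagenase and trypsin and filtered, with no sorting described. Nothing in the labels ties the libraries to separate animals, so the p-values reflect spread among libraries that could be technical in part.

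Type I interferons bind a receptor made of IFNAR1 and IFNAR2, and interferon gamma, the type II interferon, binds IFNGR1 and IFNGR2. Janus kinases on the receptor tails then phosphorylate STAT proteins. STAT2 joins another STAT and IRF9 in the complex ISGF3, which binds interferon-stimulated response elements (ISRE), while STAT dimers bind gamma-activated sequences (GAS). IRF3 is present before infection and starts interferon transcription when nucleic acid sensors are triggered, IRF7 is itself induced by interferon and amplifies the response, and IRF1 is induced by interferon gamma and by other stimuli. In the testis, Sertoli cells, Leydig cells and macrophages are known to respond to interferons.

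Promoter sequence is shown for the members whose RefSeq promoter window (GRCm38.p6, 250 bases before a transcript start and 50 after) held one of the elements that this pathway's factors bind, and for Irf7 and Irf3, the members with the largest difference in each direction. Each line runs 5′ to 3′ on the gene's strand, from 250 bases before the start to 10 after it, with ISRE or GAS matches in capitals.
Stat2, chr10:128270248-128270507, plus strand: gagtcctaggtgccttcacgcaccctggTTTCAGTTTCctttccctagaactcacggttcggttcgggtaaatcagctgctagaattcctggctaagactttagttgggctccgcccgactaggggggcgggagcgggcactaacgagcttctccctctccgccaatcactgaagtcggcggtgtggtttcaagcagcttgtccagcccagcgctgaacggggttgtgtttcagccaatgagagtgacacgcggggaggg
Irf1, chr11:53769764-53770023, plus strand: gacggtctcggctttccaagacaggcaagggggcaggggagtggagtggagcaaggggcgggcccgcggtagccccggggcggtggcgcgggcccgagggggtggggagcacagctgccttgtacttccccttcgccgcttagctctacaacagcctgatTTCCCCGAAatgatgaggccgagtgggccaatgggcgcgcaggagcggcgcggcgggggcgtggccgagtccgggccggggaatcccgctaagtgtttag
Ifnar1, chr16:91484965-91485224, plus strand: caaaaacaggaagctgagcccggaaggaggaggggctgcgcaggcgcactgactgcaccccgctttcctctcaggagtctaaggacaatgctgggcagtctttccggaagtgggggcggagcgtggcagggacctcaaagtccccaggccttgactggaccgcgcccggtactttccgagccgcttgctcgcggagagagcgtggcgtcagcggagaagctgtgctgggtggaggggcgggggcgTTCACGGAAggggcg
Ifnar2, chr16:91372533-91372792, plus strand: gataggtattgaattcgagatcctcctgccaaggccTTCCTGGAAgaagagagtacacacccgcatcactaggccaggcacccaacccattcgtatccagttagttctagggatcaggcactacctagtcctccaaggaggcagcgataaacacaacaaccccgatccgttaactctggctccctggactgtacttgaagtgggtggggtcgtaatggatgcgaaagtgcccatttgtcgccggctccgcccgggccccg
Irf7, chr7:141266415-141266674, minus strand: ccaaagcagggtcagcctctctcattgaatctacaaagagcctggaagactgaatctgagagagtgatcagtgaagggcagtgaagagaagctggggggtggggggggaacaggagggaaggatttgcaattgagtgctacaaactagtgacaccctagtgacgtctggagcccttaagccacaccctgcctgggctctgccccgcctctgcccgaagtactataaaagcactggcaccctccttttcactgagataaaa
Irf3, chr7:44997398-44997657, plus strand: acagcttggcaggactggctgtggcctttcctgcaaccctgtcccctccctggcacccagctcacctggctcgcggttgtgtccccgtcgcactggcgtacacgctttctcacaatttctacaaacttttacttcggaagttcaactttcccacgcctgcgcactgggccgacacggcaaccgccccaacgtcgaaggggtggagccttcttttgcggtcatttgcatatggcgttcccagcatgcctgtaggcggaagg

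The 9 genes had 11 promoter windows, 2 each for Irf1 and Irf9. The ISRE was searched on both strands as GAAA, any 2 bases and GAAA again, and occurred in 1 window, that of Stat2, as TTTCAGTTTC on the given strand, starting at position -222 from the transcript start. Of all 32851 RefSeq windows, 3.44% held it. The GAS, searched as TTCNNNGAA, which reads the same on both strands, lay in 3 windows, at -90 in Irf1, -214 in Ifnar2 and -5 in Ifnar1, and in 8.3% of all windows. The GC box GGGCGG, an SP1-type element searched on both strands, occurred in 9 of the 11 windows and in 35.7% of all. The Irf7 window held none of these letters, which says nothing about elements written differently or lying elsewhere.

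Total gene counts ran from 16750609 to 23700094 per library, and 3 counts correspond to 0.117 to 0.189 CPM (counts per 1000000, with library sizes adjusted by TMM), a floor that covers counting error only. Transcripts of the germ cell genes Ddx4 and Dazl were abundant, at 824 ± 105 and 845 ± 76.0 CPM in Ino80WT (SD, n = 5), while the spermatid genes Prm1, Prm2 and Tnp2 were at 0 in every library. Somatic transcripts were present too, with the 8 listed Sertoli markers summing to 1079 to 2332 CPM per library. Ino80 itself stood at 94.9 ± 12.6 CPM in the Ino80WT libraries and 96.0 ± 1.37 CPM in the others. Which exons were deleted is not stated, so the whole-gene count is no check of the genotype labels.

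Transcripts of 8 members were on average higher in Ino80cKO and that of 1, Irf3, was lower. The log2 fold changes (Ino80cKO over Ino80WT) ran from -0.66 for Irf3 to 1.31 for Irf7, with a median of 0.40, against 0.02 over all tested genes. By edgeR's quasi-likelihood test at an adjusted p below 0.05, 6 members were called higher, 1 lower, and 2, Ifngr1 and Irf1, were not called. Of all tested genes 18.3% were called higher and 27.6% lower, and because the members were chosen on this contrast nothing is read from their count. For 5 members the CPM of the groups had no overlap, against 32.0% of all tested genes. These were Ifnar1, Ifnar2, Irf7 and Irf9, all higher (9.96% of tested genes), and Irf3, lower (22.0% of tested genes).

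**Figure D1:**
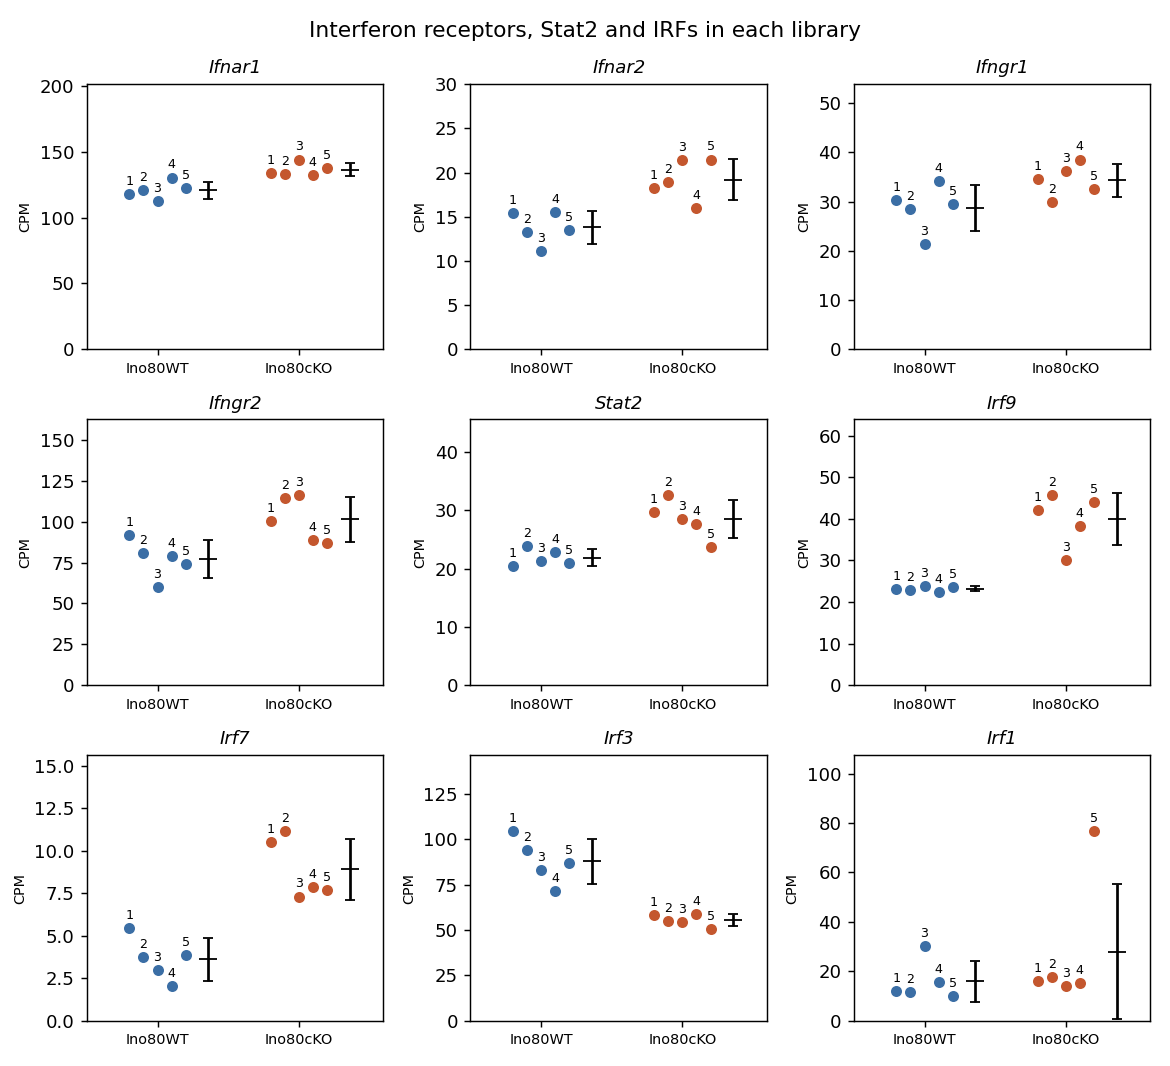
Each panel plots the CPM of 1 gene (vertical axis, from 0) in the 5 Ino80WT and 5 Ino80cKO libraries, with the library's number above each point and the mean ± SD of the group in black. All Ino80cKO points of Irf7 (7.31 to 11.1 CPM) and Irf9 lie above those of Ino80WT, those of Irf3 lie below, and the mean of Irf1 in Ino80cKO is carried by library 5.

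The type I receptor chains differed in level and in the size of the difference. IFNAR2 is the chain with high affinity for the ligand. Its gene (chromosome 16, 91372783 to 91405589) was at 15.5, 13.3, 11.1, 15.5 and 13.5 CPM in Ino80WT libraries 1 to 5 and at 18.2, 19.0, 21.4, 15.95 and 21.5 CPM in Ino80cKO libraries 1 to 5. Every Ino80cKO library was above every Ino80WT library, though by a narrow margin between Ino80cKO 4 and Ino80WT 4. The log2 fold change of Ifnar2 was 0.48 ± 0.12 (SE), or 1.39-fold. Ifnar1 (chromosome 16, 91485032 to 91510523), the partner chain, was at 112 to 131 CPM in Ino80WT and 132 to 144 CPM in Ino80cKO, which gave 0.17 ± 0.06 on the log2 scale, or 1.13-fold. Its groups did not overlap either, but the call of Ifnar1 was lost in 10 of 20 alternative settings, 8 of them with 1 library left out. Per kilobase of transcript, Ifnar1 exceeded Ifnar2 by 6.90 ± 0.72 times in Ino80WT and 5.59 ± 0.56 times in Ino80cKO (SD, n = 5), with library ratios of 5.93 to 7.87 and 5.01 to 6.47 that overlap.

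The type II receptor chains were closer to each other in level. IFNGR1 binds interferon gamma and IFNGR2 is needed for signalling, and the abundance of IFNGR2 limits the response in some cell types. Ifngr2 (chromosome 16, 91547059 to 91564007) was at 91.8, 80.6, 60.3, 79.0 and 74.4 CPM in Ino80WT libraries 1 to 5 and at 101, 115, 116, 89.1 and 87.3 CPM in Ino80cKO libraries 1 to 5. Ino80WT 1 lay above Ino80cKO 4 and 5, and all other Ino80WT libraries lay below the Ino80cKO range. On the log2 scale Ifngr2 differed by 0.40 ± 0.12, or 1.32-fold. Ifngr1 (chromosome 10, 19591949 to 19610229) was at 21.4 to 34.1 CPM in Ino80WT and 29.8 to 38.5 CPM in Ino80cKO, with a log2 fold change of 0.26 ± 0.12 and overlapping groups. Within Ino80WT, all 4 receptor genes were lowest in library 3. That library also held the lowest summed Sertoli markers of its group, 1079 against 1469 to 1830 CPM, and the highest sum of the 9 listed pachytene markers, 4653 against 2704 to 3684 CPM. The part of this library's make-up in the receptor differences was not tested, and without it the log2 fold changes were 0.41 for Ifnar2 and 0.32 for Ifngr2.

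Ifnar2, Ifnar1 and Ifngr2 lie in a row on chromosome 16 with Il10rb, a chain shared by the receptors of interferon lambda and interleukin 10. Il10rb was higher in Ino80cKO, from 21.0 ± 2.81 to 28.1 ± 1.88 CPM (log2 0.42 ± 0.10, adjusted p = 0.00569). The genes next to the cluster varied in direction. On the Ifnar2 side, Olig1, a transcription factor gene, had a log2 fold change of 0.70 ± 0.39 and was not called. Tmem50b, Dnajc28, Donson and Cryzl1, on the far side of Ifngr2, fell by 0.37, 0.48, 0.59 and 0.64 on the log2 scale, Gart, a purine synthesis enzyme, rose by 0.24, and Son, at -0.10, did not pass the test. These neighbours were picked by position and their values serve as a description.

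STAT2 and IRF9 are the components of ISGF3 that give it its specificity for type I interferon. Irf9 (chromosome 14, 55603985 to 55610030) was at 23.1, 22.9, 24.0, 22.4 and 23.7 CPM in Ino80WT libraries 1 to 5 and at 42.2, 45.7, 30.0, 38.4 and 44.2 CPM in Ino80cKO libraries 1 to 5. The Ino80WT libraries were nearly level, with a coefficient of variation of 2.67%, while the Ino80cKO libraries varied by 15.6%, and no Ino80cKO library came within the Ino80WT range. The log2 fold change of Irf9 was 0.79 ± 0.11, or 1.73-fold. Stat2 (chromosome 10, 128270498 to 128292853), whose promoter window holds the ISRE shown above, was at 20.4, 24.0, 21.3, 22.8 and 20.9 CPM in Ino80WT libraries 1 to 5 and at 29.8, 32.6, 28.5, 27.7 and 23.7 CPM in Ino80cKO libraries 1 to 5. Its groups overlapped at 1 point, Ino80cKO 5 lying just below Ino80WT 2. On the log2 scale Stat2 differed by 0.38 ± 0.09, or 1.30-fold. Per kilobase the ratio of Irf9 to Stat2 was 1.58 ± 0.13 in Ino80WT and 2.12 ± 0.43 in Ino80cKO, with overlapping library values of 1.42 to 1.69 and 1.56 to 2.77. Irf9 shares 123 exonic bases on the same strand with Rnf31, a ubiquitin ligase gene, which was at 31.2 ± 2.33 CPM in Ino80WT and 42.8 ± 2.43 CPM in Ino80cKO.

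Irf7, the interferon-induced amplifier, had the largest relative difference of the 9 genes and the lowest level. In Ino80WT libraries 1 to 5 Irf7 (chromosome 7, 141263183 to 141266499) was at 5.47, 3.72, 2.97, 2.06 and 3.87 CPM, and in Ino80cKO libraries 1 to 5 at 10.5, 11.1, 7.31, 7.85 and 7.71 CPM. Each Ino80cKO library exceeded each Ino80WT library, and Ino80cKO 1 and 2 stood above the other three of their group. These levels rest on 46 to 87 counts per Ino80WT library and 148 to 269 per Ino80cKO library. The log2 fold change of Irf7 was 1.31 ± 0.23, or 2.49-fold, and over 20 alternative settings it ran from 1.16 to 1.66. Exons of Irf7 share 45 bases with those of Phrf1 on the opposite strand, a gene at 150 ± 10.6 CPM in Ino80WT with a log2 fold change of -0.07 ± 0.07. The library kit marks strand, but no source used here states whether counting used it, so Irf7 is uncertain to the extent that reads from Phrf1 entered its count. The same holds for Irf3 and its neighbour Bcl2l12, and for Irf1, which shares 135 exonic bases with Gm17334 on the opposite strand. Irf9 and Ifnar2 instead share bases on the same strand, Irf9 with Rnf31 and Ifnar2 with Gm21970 (315 exonic bases). Strand cannot separate reads from those bases under any setting, so the counts of Irf9, Rnf31 and Ifnar2 remain uncertain to that extent. Gm17334 and Gm21970 are not among the gene rows, so no values are given for them.

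Irf3, the factor that is held ready before infection, moved the other way. Irf3 (chromosome 7, 44997648 to 45002848) was at 104, 93.8, 82.9, 71.2 and 86.6 CPM in Ino80WT libraries 1 to 5 and at 58.1, 54.7, 54.5, 58.8 and 50.5 CPM in Ino80cKO libraries 1 to 5. The Ino80cKO libraries lay close together and all of them below the lowest Ino80WT library. The log2 fold change of Irf3 was -0.66 ± 0.10, or 1.59-fold lower. Bcl2l12, a BCL2 family gene that starts next to Irf3 on the opposite strand and shares 88 exonic bases with it, was at 47.7 ± 7.51 CPM in Ino80WT and 25.3 ± 4.07 CPM in Ino80cKO (log2 -0.92 ± 0.13, adjusted p = 0.000207). Per kilobase, the level of Irf3 was 28.4 ± 6.49 times that of Irf7 in Ino80WT and 7.03 ± 1.27 times in Ino80cKO, with library ratios of 21.0 to 38.1 and 5.41 to 8.25.

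Irf1, which many stimuli induce, differed between libraries more than between genotypes. Irf1 (chromosome 11, 53770014 to 53778374) was at 12.1, 11.5, 30.5, 15.6 and 10.2 CPM in Ino80WT libraries 1 to 5 and at 16.1, 17.8, 14.2, 15.3 and 76.7 CPM in Ino80cKO libraries 1 to 5. In each group 1 library stood far above the rest, Ino80WT 3 and Ino80cKO 5, and the remaining libraries of the groups lay between 10.2 and 17.8 CPM. For Irf1 the log2 fold change was 0.80 ± 0.50. It was -0.016 ± 0.28 without Ino80cKO 5, 1.17 ± 0.56 without Ino80WT 3, and 0.36 ± 0.14 without both, a setting added after the data were seen.

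The same libraries were high in immediate-early genes, which are transcribed within minutes of a stimulus. A list of 16 such genes, chosen after the Irf1 values were seen, summed to 1776 CPM in Ino80WT 3 against 365 to 525 CPM in the other Ino80WT libraries, and to 3391 CPM in Ino80cKO 5 against 561 to 866 CPM in the other Ino80cKO libraries. All 16 were highest in library 3 among Ino80WT and in library 5 among Ino80cKO. Between genotypes 0 of the 16 were called, against 45.9% of all tested genes. Their log2 fold changes were nonetheless all positive, from 0.48 for Klf6 to 1.23 for Atf3. With spread this wide within groups, the lack of calls does not show equal levels. Fos, a subunit of the AP-1 transcription factor, was at 250 CPM in Ino80WT 3 and 29.0 to 59.0 CPM in the other Ino80WT libraries, and at 499 CPM in Ino80cKO 5 and 58.9 to 110 CPM in the other Ino80cKO libraries. Socs3, a feedback inhibitor of Janus kinase signalling, was at 17.7 CPM in Ino80WT 3 and 36.6 CPM in Ino80cKO 5, and no other library exceeded 7.71 CPM. It was called higher in 2 of 20 alternative settings. The part of these 2 libraries in the other members' differences was not tested. In the fit without them, the log2 fold changes of Irf7, Irf9 and Irf3 were 1.31, 0.76 and -0.65. There Ifnar1 was at 0.14 and not called, and the median of the members was 0.37, against 0.40 in the main fit.

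**Figure D2:**
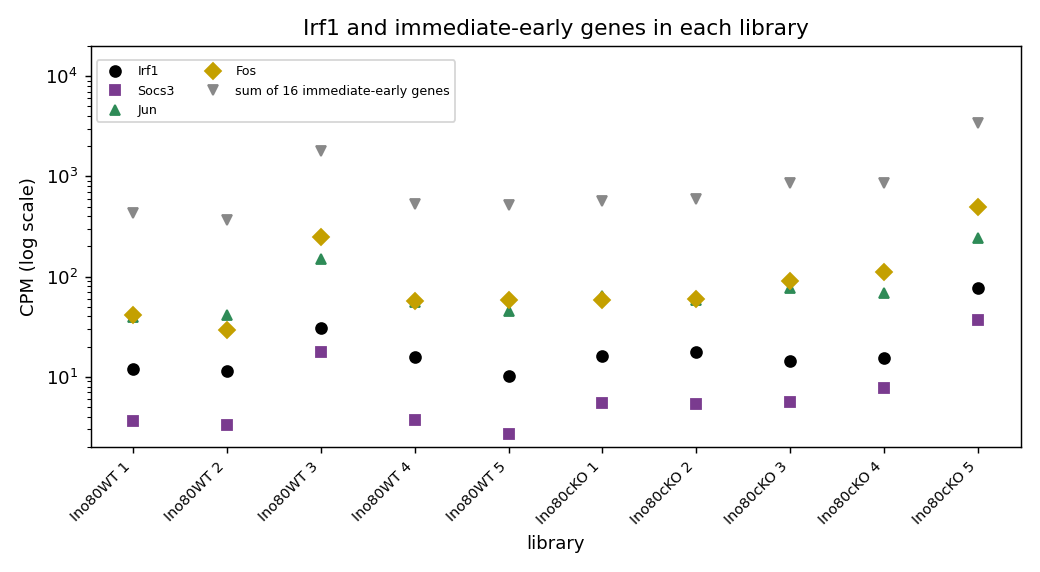
CPM on a log scale of Irf1, of the immediate-early genes Jun and Fos, of Socs3 and of the sum of 16 immediate-early genes in each of the 10 libraries. In every series the points of Ino80WT 3 and Ino80cKO 5 stand above the other libraries of their group, for Irf1 at 30.5 and 76.7 CPM.

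Compared per kilobase of the longest coding transcript (GENCODE M21), the 9 genes spanned a wide range of levels in Ino80WT. Irf3 was highest at 43.2 ± 6.08 CPM per kilobase, above 85.5% of the 13636 tested genes with a length. It was followed by Ifnar1 (30.9 ± 1.71), Ifngr2 (20.8 ± 3.08), Ifngr1 (13.6 ± 2.20), Irf9 (7.84 ± 0.21), Irf1 (7.47 ± 3.91), Stat2 (4.98 ± 0.34), Ifnar2 (4.53 ± 0.60) and Irf7 (1.62 ± 0.56), the last above 20.7% of genes. Library ranges of neighbours in this order overlapped for Irf9 and Irf1, for Irf1 and Stat2, and for Stat2 and Ifnar2, and did not overlap for the other neighbours. In Ino80cKO the order at the top changed to Ifnar1 (34.9 ± 1.26), Ifngr2 (27.4 ± 3.68) and Irf3 (27.2 ± 1.63), the last 2 with overlapping ranges, and Irf7 remained lowest at 3.98 ± 0.80.

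**Figure D3:**
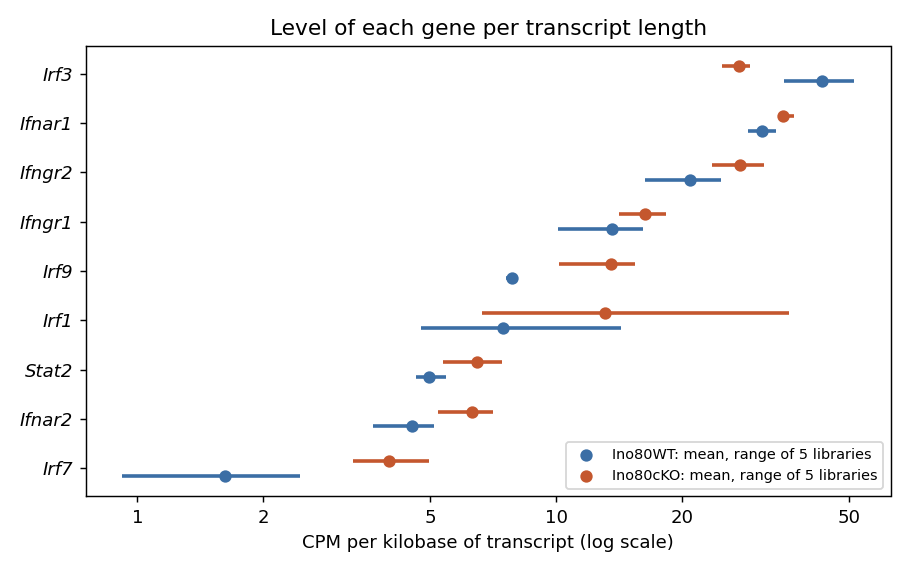
Mean CPM per kilobase of transcript (log axis) of each gene in Ino80WT and Ino80cKO, with a bar for the range of the 5 libraries. Irf3 is the highest in Ino80WT at 43.2 and lies below Ifnar1 and Ifngr2 in Ino80cKO at 27.2, and Irf7 is the lowest in both.

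Among the members, the most similar profiles over the 10 libraries were those of Ifnar2 and Ifngr2, whose log2 CPM, centred on the mean of the libraries, differed by 0.10 on average, and of Ifnar1 and Ifngr1, which differed by 0.12. Irf3 and Irf7 were farthest apart at 0.99. Outside the set, the genes nearest to Irf7 by this measure were the interferon-inducible GTPase Gbp6 (0.17), the histone gene Hist1h4i (0.19) and Uba7 (0.20), the activating enzyme for the ubiquitin-like ISG15. Nearest to Irf9 were Parp9 (0.09), an interferon-induced ADP-ribosyltransferase family member, the growth factor gene Igf2 (0.10) and Ddx60 (0.11). Those nearest to Irf1 were Edn1 (0.21), Jun (0.22) and Btg2 (0.23), and those nearest to Irf3 were Npc1l1 (0.05), the mitochondrial complex I subunit Ndufa6 (0.06) and Dtymk (0.07), a thymidylate kinase. For the receptors, the nearest were Tgoln1, Smad2 and Cdv3 to Ifnar1 (0.03 to 0.04), Rbms1, Nfe2l2 and Impa2 to Ifnar2 (0.06 to 0.07), Slc25a42, Tmem144 and Minpp1 to Ifngr1 (0.06 to 0.07), and Sat1, Rab12 and Sparc to Ifngr2 (0.03 to 0.05). For Stat2 they were the matrix and cell surface genes Gpc4, Col5a1 and the enzyme gene Pam (0.06 each). These distances include the difference between genotypes and imply no shared control.

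The interferons themselves were barely detected. Of 21 listed ligand genes, 14 had no count in any library, and all 21 together had 11 counts in the 5 Ino80WT libraries and 9 in the 5 Ino80cKO libraries. The highest level in any library was 0.189 CPM, or 3 counts, at the floor. None passed the count filter, so a difference in ligand transcripts was not detectable at this depth.

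The rest of the signalling chain was in part higher as well. These lists were drawn up with earlier results of these data known, and their counts are read against the 18.3% of genes called higher and 27.6% called lower. Among 4 Janus kinases, Jak1 rose from 267 ± 19.5 to 338 ± 21.0 CPM (log2 0.34 ± 0.07, adjusted p = 0.00292), Jak2 rose by 0.35 ± 0.07 on the log2 scale, Tyk2, which serves the IFNAR1 chain, fell by 0.25 ± 0.07 (adjusted p = 0.011), and Jak3 was not called (-0.29 ± 0.16). The call of Tyk2 was lost in 3 of 20 alternative settings, and under library totals in place of TMM factors its log2 fold change was -0.07. Both chains of the interferon lambda receptor were called higher, Ifnlr1 from 3.42 ± 0.62 to 4.60 ± 0.64 CPM (adjusted p = 0.0414) beside Il10rb. The call of Ifnlr1 was lost in 9 of 20 alternative settings.

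Of 5 tested STAT genes other than Stat2, 4 were higher and 1 was lower (median 0.44 on the log2 scale). Stat6, the transducer of interleukin 4, rose by 0.54 ± 0.15 (adjusted p = 0.00948), Stat5b rose by 0.44 ± 0.09, and Stat3, the main transducer of interleukin 6, by 0.20 ± 0.06. Stat5a, the close paralog of Stat5b, fell by 0.28 ± 0.10 (adjusted p = 0.0297), a call lost in 12 of 20 alternative settings. Of 7 tested genes among the other IRFs and IRF2-binding proteins, 6 were higher and none lower, with a median of 0.51. Irf8, a factor of macrophages and dendritic cells, rose from 2.75 ± 0.43 to 4.34 ± 0.65 CPM (log2 0.66 ± 0.15, adjusted p = 0.00457), Irf5, also of myeloid cells, from 2.02 ± 0.21 to 2.97 ± 0.43 CPM, and Irf2, a repressor that competes with IRF1, by 0.38 ± 0.11 on the log2 scale. The co-repressor genes Irf2bpl, Irf2bp2 and Irf2bp1 rose by 0.51, 0.54 and 0.27.

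Of 13 inhibitors of the pathway, 4 were called higher and 4 lower, with a median of 0.21. Over all tested genes 18.3% were called higher and 27.6% lower. Usp18, an interferon-induced protease that shuts off IFNAR2, rose from 2.61 ± 0.52 to 5.12 ± 1.15 CPM (log2 0.97 ± 0.19, adjusted p = 0.00143), and the phosphatase gene Ptpn11 rose by 0.44 ± 0.11. The SUMO ligase genes Pias2, Pias1 and Pias4 fell by 0.54, 0.35 and 0.44. Of 12 genes that activate IRF3 and IRF7, 5 were higher and 3 lower, with a median of 0.33. Irak1, an X-linked kinase downstream of Toll-like receptors, rose from 31.9 ± 4.66 to 53.0 ± 4.36 CPM (log2 0.73 ± 0.10, adjusted p = 0.000175), and Myd88, the adaptor that recruits it, fell from 32.1 ± 4.23 to 18.1 ± 2.34 CPM (log2 -0.83 ± 0.12, adjusted p = 0.000174). Mavs, Traf6 and Ticam1 rose by 0.51, 0.42 and 0.53. Over all 43 tested signalling genes outside the set, 23 were higher and 9 lower.

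Genes that interferons induce were mostly higher. Of 39 tested type I targets 30 were higher and 2 lower (median 0.70 on the log2 scale), and of 20 tested type II targets 16 were higher and none lower (median 1.18). Oasl2, of the oligoadenylate synthetase family, rose from 22.4 ± 1.82 to 44.6 ± 2.95 CPM (log2 0.99 ± 0.08, adjusted p = 2.99e-05), and Lgals3bp, Ifih1 and Parp9 rose by 1.11, 0.85 and 0.74 on the log2 scale. Dhx58 and Epsti1, singled out after their values were seen, were the 2 lower ones, at -1.23 ± 0.32 and -1.22 ± 0.32. Among type II targets, the GTPase genes Gbp7, Gbp3, Gbp6 and Irgm2 rose by 1.16, 1.20, 1.25 and 1.24. The type I targets also include Rtp4 and the type II targets Iigp1, with log2 fold changes of 1.80 and 1.92. Many genes of either list respond to both types of interferon.

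**Figure D4:**
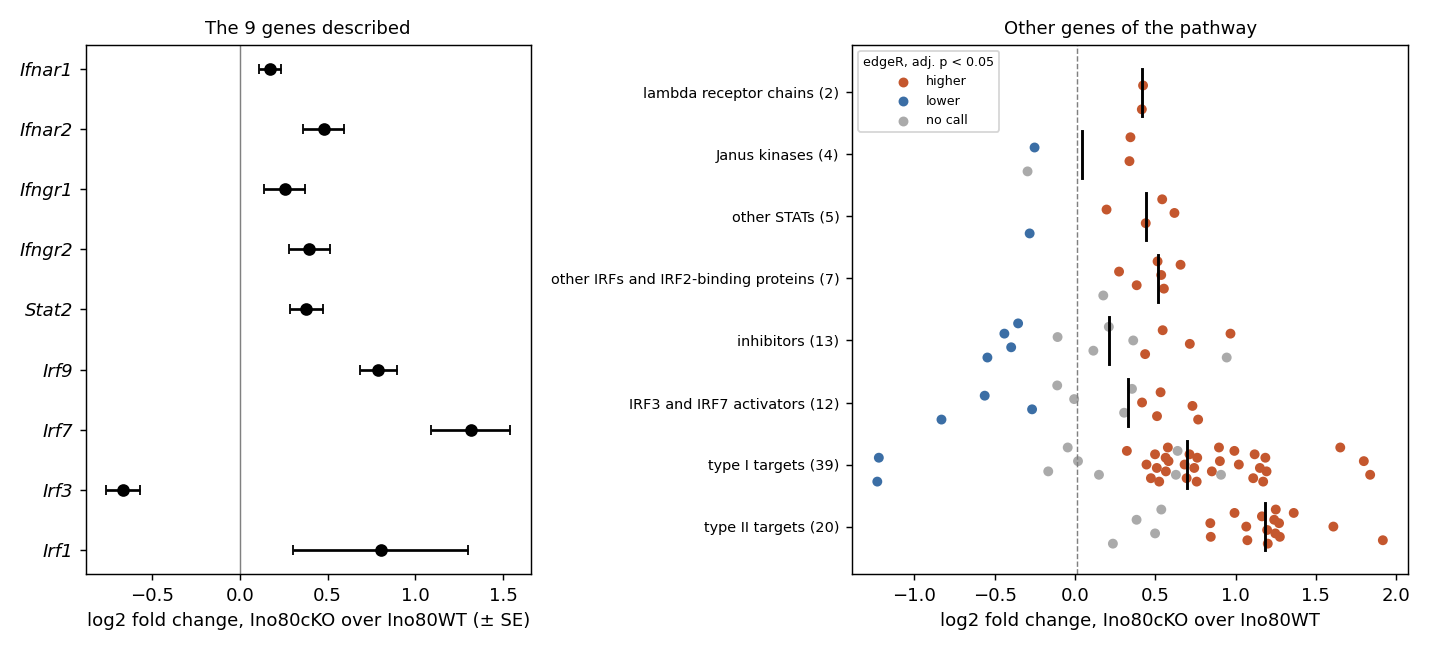
Left, log2 fold change (Ino80cKO over Ino80WT) ± SE of the 9 genes, from -0.66 for Irf3 to 1.31 for Irf7. Right, the log2 fold change of each tested gene of the other pathway lists (number tested in brackets), coloured by its call, with a black bar at the list's median and a dashed line at the median of all tested genes, 0.02.

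Markers of cells that could carry these transcripts differed between the groups in some of the lists. Over all tested genes 18.3% were called higher and 27.6% lower. The short peritubular and spermatogonial lists, with 1 call each, are not read as a difference. All 6 listed pan-leukocyte markers, such as Laptm5 and Coro1a, were called higher, and their summed level was 6.16 to 9.05 CPM in Ino80WT and 12.5 to 17.1 CPM in Ino80cKO. Of 15 macrophage markers 14 were tested, 9 were higher and none lower, with sums of 159 to 194 and 203 to 266 CPM, most of it from Mpeg1 and Mrc1. No listed pan-leukocyte or macrophage marker was at 0 in any library. The sums were 1079 to 1830 and 1525 to 2332 CPM for 8 Sertoli markers, of which 3 were higher, and 573 to 720 and 648 to 953 CPM for 3 peritubular markers, of which 1 was higher. Of 5 tested Leydig markers 3 were higher, Star, Lhcgr and Hsd3b1, with sums over the list of 26.4 to 71.5 and 48.1 to 108 CPM. The 6 endothelial markers had 0 calls and overlapping sums of 44.8 to 72.8 and 49.2 to 86.3 CPM. The 9 pachytene and later spermatocyte markers were all called lower, with sums of 2704 to 4653 and 945 to 1683 CPM. Of 6 meiotic prophase markers 5 were lower (2597 to 4261 and 2010 to 2512 CPM), and of 4 general germ cell markers 3 were lower, among them Ddx4, which fell from 824 ± 105 to 436 ± 46.3 CPM. Of 7 spermatogonial markers 1 was higher and none lower (358 to 478 and 447 to 528 CPM). The part of these cell types in the members' differences was not tested. In bulk RNA, fewer cells of a type and less RNA per cell cannot be told apart.

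**Figure D5:**
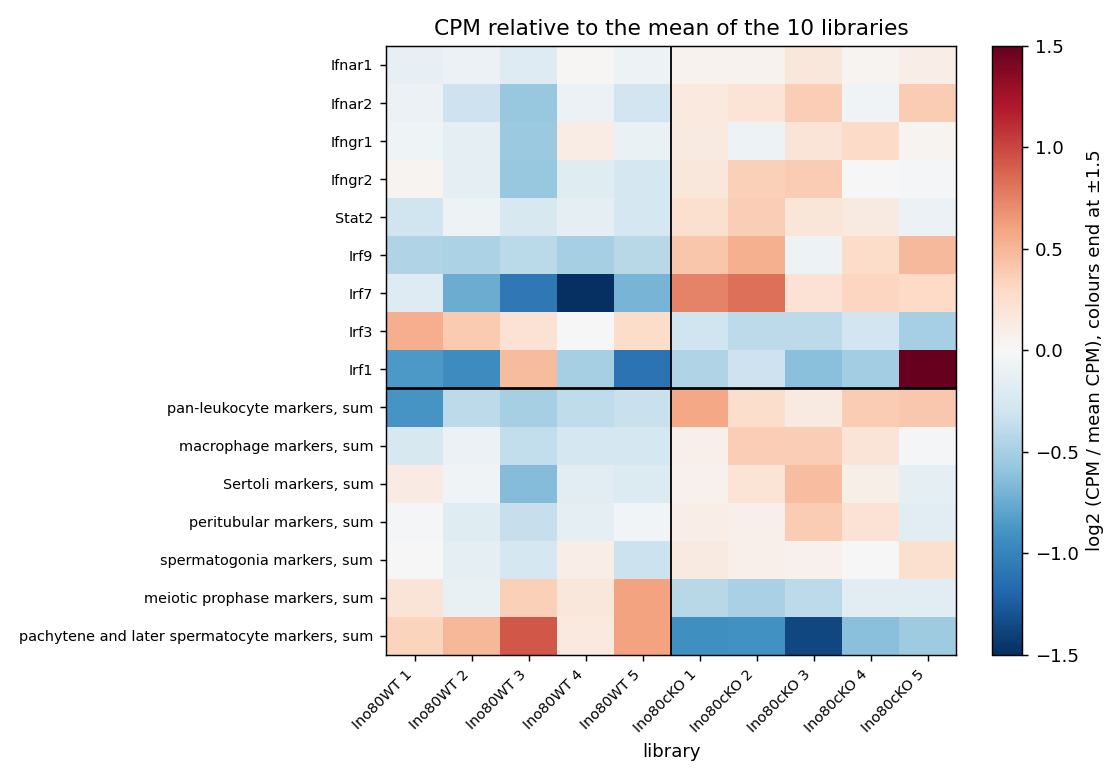
Log2 of the CPM of each gene (upper rows) and of the summed CPM of each marker list (lower rows), relative to the mean of the 10 libraries, in each library. Irf7, Irf9 and the pan-leukocyte and macrophage sums are higher in Ino80cKO, Irf3 and the pachytene sum are lower, and Irf1 is highest in Ino80cKO 5.

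In 20 alternative settings, 5 to 7 members were called higher and 1 lower. Scaling by library totals moved the median of all tested genes from 0.02 to 0.19 and the share of called genes that were lower from 60.2% to 34.9%. Under it the median of the 9 genes was 0.57, and Irf3 was still lower.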

How the data were processed

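PolyA RNA was sequenced from 5 Ino80WT and 5 Ino80cKO libraries, and the groups and replicate numbers come from the sample titles. The authors deposited 1 file per library with raw read counts for each gene symbol, without normalization. Per the submitters' processing notes TopHat2, HTSeq, DESeq2 and the mm10 build were used, without versions. No source used here gives the annotation or the strand setting. The 5 rows of each file that name no gene held 35.5% to 44.0% of reads and were left out of library sizes.

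The test was edgeR's (4.0.16, R 4.3.3): filterByExpr on genotype (minimum count 10, minimum total 15), TMM factors, and glmQLFit and glmQLFTest with robust dispersions and genotype as the only term. A gene was called at a Benjamini-Hochberg adjusted p below 0.05 over all tested genes. The SE is the log2 fold change divided by the square root of F, and log2 CPM used a prior count of 2. Transcript lengths are those of the longest coding transcript in GENCODE M21's basic set, and positions and promoters come from RefSeq GRCm38.p6, the same build as mm10. No 2 libraries were duplicates (lowest chi-square per degree of freedom 8.93). The members, lists and tests were chosen with earlier results of these data known. The rule for names took, from each other list, up to 5 called genes with the smallest adjusted p and every kinase, STAT and IRF, and for each member the 3 genes with the most similar profile, provisional symbols left out, and up to 2 abundant genes per marker list; other marker genes, Socs3 and the immediate-early genes were named after their values were seen. DESeq2 1.42.0, other scalings and filters, a block for the replicate number and omission of libraries were alternatives. Some genes counted in the lists are not reported here.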

Additional observations from a re-analysis of the deposited data

Results flagged for a closer look

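In a check of 48 named genes in both groups of 5 libraries, 5 values stood apart from the rest of their group. The criterion was Dixon's at 95% (gap over range above 0.71). Chance alone flags about 1 in 20 groups. The 5 flags in the 96 groups checked cannot be read against that rate, because Socs3 was added for its values. The Irf1 and Socs3 flags fall in Ino80WT 3 and Ino80cKO 5, the libraries of their groups that were highest in the immediate-early genes. Irf1 was at 30.46 CPM in Ino80WT 3, against 10.2 to 15.6 CPM in the other Ino80WT libraries, and at 76.71 CPM in Ino80cKO 5, against 14.2 to 17.8 CPM in the other Ino80cKO libraries. Socs3, included after its values were seen, was high in the same libraries. It was at 17.73 CPM in Ino80WT 3 (others 2.68 to 3.72 CPM) and 36.55 CPM in Ino80cKO 5 (others 5.33 to 7.71 CPM). Il10rb was at 24.75 CPM in Ino80cKO 5, below the 28.4 to 29.4 CPM of the other Ino80cKO libraries.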

How the results depend on the processing

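Of 180 recomputed values of the 9 genes (20 settings each), 166 kept their direction and side of the threshold, 10 lost the call, 3 gained it and 1 changed sign. Ifnar2, Ifngr2, Stat2, Irf3, Irf7 and Irf9 kept direction and call in all 20. With 1 library left out, Irf1 ran from -0.016 (without Ino80cKO 5) to 1.17, Socs3 from -0.060 (without Ino80cKO 5) to 1.85, Ifnar1 from 0.15 to 0.20 with the call lost in 8 of 10 cases, and Ifngr1 from 0.16 to 0.33, called without Ino80WT 4. Ifngr1 was also called with library totals (0.42) and with DESeq2 (0.29). Without Ino80WT 3 and Ino80cKO 5, a setting chosen after seeing the data, Ifnar1 was at 0.14 and not called. Library totals gave 0.35 for Ifnar1, its highest value over the 20 settings, and 5484 higher and 2938 lower genes, against 2793 and 4220, and 4 lower genes of the other signalling lists against 9; without Ino80WT 1 and 2 there were 5.

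The replicate numbers did not pair the libraries: same-number correlations of deviations were 0.20, 0.11, -0.47, -0.17 and -0.18, and 1 of 5 Ino80WT libraries correlated best with its own number. With a replicate block 1921 genes were higher, 5 signalling genes were lower, and the value of Ifnar1 was 0.18 and not called. Stat3, Irf2 and Irf2bp1 lost their calls with this block and in no other setting, and Pias4 lost its call only without Ino80WT 1 and 2. Depth limited the ligands, which had at most 3 counts in a library.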

Other observations

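Unlike the 6 pan-leukocyte markers, Lck, the T cell kinase gene, was called lower, at 3.85 ± 0.53 CPM in Ino80WT and 2.09 ± 0.17 CPM in Ino80cKO. Of 6 listed T cell markers 3 were tested, 1 was lower and 0 higher, against 27.6% and 18.3% of all tested genes. Cd3e and Cd3d were not called, at 0.30 ± 0.19 and -0.49 ± 0.23 on the log2 scale. The T cell sums overlapped, at 7.21 to 10.6 CPM in Ino80WT and 7.40 to 8.84 CPM in Ino80cKO, so Lck is not read as a difference in T cells. The defining T cell gene Cd3g and the B cell gene Ms4a1 had no count in some libraries, at 11 and 17 counts in all for Cd3g and 0 and 2 for Ms4a1 in Ino80WT and Ino80cKO. Each of the 3 NK cell and 2 neutrophil markers was likewise at 0 in some libraries, and their sums reached 0.352 and 0.148 CPM at most.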
